A study of Mus musculus with 22 samples.

Results

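The potassium channel genes of the mouse were taken as every gene whose symbol is Kcn, then letters, then a number at the end. The rule reads symbols and no measured value, and it found 92 of the 24467 windows in the deposited count table, each 5000 bp long and centred on a transcription start site of genome build mm10. By symbol the 92 genes comprised 30 voltage-gated pore subunits (Kcna, Kcnb, Kcnc, Kcnd, Kcnh and Kcnq), 10 modifier subunits (Kcnf, Kcng, Kcns and Kcnv), 15 inward rectifiers (Kcnj), 14 tandem-pore leak channels (Kcnk), 8 calcium- or sodium-activated channels (Kcnma, Kcnn, Kcnt and Kcnu) and 15 auxiliary subunits (Kcnab, Kcne, Kcnip and Kcnmb). These roles follow the symbol family alone, so Kcnu1 is counted as calcium- or sodium-activated without evidence here that either ion opens it. A further 6 windows whose names begin with Kcn fell outside the rule (Kcnd3os, Kcne1l, Kcnmb4os1, Kcnmb4os2, Kcnq1ot1 and Kcnrg). Since 6 of the 92 windows overlapped a window of another gene, part of their counts is shared with it.

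Potassium channels let potassium leave the cell, which sets the resting potential and ends each action potential. The pore subunits are opened by voltage, by intracellular calcium or sodium, or are open at rest, while modifier and auxiliary subunits change where and how the pores work. Most are expressed in neurons, muscle or epithelia rather than in embryonic stem cells, and many of their start sites are CpG-rich, the kind of promoter at which Polycomb repressive complex 2 (PRC2) acts in stem cells. SUZ12 is a core PRC2 subunit, MTF2 and JARID2 are accessory subunits found in alternative forms of the complex, and H3K27me3, trimethylation of lysine 27 of histone H3, is the mark that PRC2 writes on silent genes. H3K4me3, trimethylation of lysine 4, marks start sites that are active or poised.

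The 5 antibodies against these proteins and marks were used in CUT&RUN, in which an antibody directs a nuclease to cut out the DNA around its target, with 2 libraries for each antibody and cell type and 1 library of the control antibody IgG per cell type, 22 in all. Mouse embryonic stem cells (ESC) were kept in LIF at 100 U/mL with the inhibitors CHIR99021 at 3 µM and PD0325901 at 1 µM. Neural progenitor cells (NPC) were derived from them by 72 h in bFGF (10 ng/mL) followed by 48 h in SAG (500 nM), an agonist of the Hedgehog pathway. All libraries came from untreated C57BL/6 cells whose genotype is given as untagged with Tir1, so ESC and NPC share the Tir1 transgene. Libraries of one group are called biological replicates by the submitters. A level averages over all cells of a library, so fewer cells with a bound window and less binding per cell cannot be told apart.

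Library totals ran from 298458 counts (IgG in ESC) to 8425292 (H3K4me3 in NPC), and levels are given as CPM, counts scaled to a common total per library over all windows, so that 3 counts correspond to 10.05 CPM in the shallowest and 0.356 CPM in the deepest library. The difference within the NPC JARID2 pair was not beyond counting error, so the pair was counted as 1 library (chi-square per degree of freedom 1.004, p = 0.3351, over windows with at least 20 counts in the pair). The NPC H3K27me3 libraries stood furthest apart, with 6.80 by the same measure, and the share of counts that their top 1% of windows took was 11.04% in one and 19.6% in the other (3.05% and 7.02% for NPC MTF2). In H3K4me3, 6 of 6 neural progenitor marker genes rose in NPC (231 to 236 CPM summed in the ESC libraries and 854 to 888 CPM in NPC) and 5 of 6 ESC marker genes fell (1026 to 1085 against 161 to 164 CPM). Of 4 neuron markers 3 rose and 1 fell, while of 3 glial markers 0 rose and 2 fell and of 4 mesoderm and endoderm markers 0 rose and 4 fell.

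The results turn on a few start sites, whose promoters show how different the sequences under these windows are. The first 3 are neighbours on chromosome 3 with high (Kcna3 and Kcna2) and low (Kcna10) SUZ12 levels in ESC, Kcnc1 is among the windows that lost the most SUZ12, Kcng3 and Kcnk4 are windows where H3K27me3 rose, and Kcnj1 is one where it fell. Each sequence runs from 250 bases before to 50 after the start in the RefSeq promoter table of build GRCm38.p6, 5′ to 3′ on the gene's strand, with each CG in capitals. They lie at chr3:107035912-107036211 (plus strand), chr3:107101317-107101616 (plus), chr3:107182893-107183192 (plus), chr7:46396218-46396517 (plus), chr17:83631846-83632145 (minus), chr19:6934466-6934765 (minus) and chr9:32393735-32394034 (plus).
Kcna3: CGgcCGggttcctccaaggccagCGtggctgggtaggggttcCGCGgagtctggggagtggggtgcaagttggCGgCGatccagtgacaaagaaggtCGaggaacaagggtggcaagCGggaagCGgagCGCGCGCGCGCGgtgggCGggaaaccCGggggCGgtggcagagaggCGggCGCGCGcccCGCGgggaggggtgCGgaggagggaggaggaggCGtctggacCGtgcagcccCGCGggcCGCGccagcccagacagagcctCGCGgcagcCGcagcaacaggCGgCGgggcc
Kcna2: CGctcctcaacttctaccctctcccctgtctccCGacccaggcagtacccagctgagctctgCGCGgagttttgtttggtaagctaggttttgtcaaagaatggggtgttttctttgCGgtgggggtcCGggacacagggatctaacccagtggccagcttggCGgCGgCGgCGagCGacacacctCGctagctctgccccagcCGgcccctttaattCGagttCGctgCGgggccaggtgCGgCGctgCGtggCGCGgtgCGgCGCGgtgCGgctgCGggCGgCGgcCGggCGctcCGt
Kcna10: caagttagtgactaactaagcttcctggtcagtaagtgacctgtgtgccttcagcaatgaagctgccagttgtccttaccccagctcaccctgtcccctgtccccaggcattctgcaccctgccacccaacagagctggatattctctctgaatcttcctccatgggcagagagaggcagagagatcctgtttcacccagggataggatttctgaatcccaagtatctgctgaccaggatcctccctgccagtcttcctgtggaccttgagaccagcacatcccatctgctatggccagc
Kcnc1: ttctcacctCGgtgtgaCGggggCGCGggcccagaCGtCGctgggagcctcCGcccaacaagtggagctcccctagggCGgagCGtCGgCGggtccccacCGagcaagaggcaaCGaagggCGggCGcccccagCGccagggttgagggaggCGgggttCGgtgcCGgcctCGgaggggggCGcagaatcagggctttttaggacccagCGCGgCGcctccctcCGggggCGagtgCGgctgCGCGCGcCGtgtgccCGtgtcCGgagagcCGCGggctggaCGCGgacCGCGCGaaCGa
Kcng3: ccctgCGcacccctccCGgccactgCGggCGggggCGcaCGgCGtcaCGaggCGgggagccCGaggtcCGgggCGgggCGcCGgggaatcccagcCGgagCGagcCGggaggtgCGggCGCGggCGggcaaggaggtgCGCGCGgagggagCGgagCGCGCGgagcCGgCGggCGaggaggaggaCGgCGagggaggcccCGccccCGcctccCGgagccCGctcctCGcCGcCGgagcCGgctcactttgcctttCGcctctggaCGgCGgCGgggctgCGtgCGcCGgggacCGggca
Kcnk4: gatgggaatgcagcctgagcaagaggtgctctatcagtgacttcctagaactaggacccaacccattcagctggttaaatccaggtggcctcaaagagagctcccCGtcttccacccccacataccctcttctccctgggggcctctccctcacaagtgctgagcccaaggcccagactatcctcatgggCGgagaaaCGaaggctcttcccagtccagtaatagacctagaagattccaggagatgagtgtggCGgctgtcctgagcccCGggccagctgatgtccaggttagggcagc
Kcnj1: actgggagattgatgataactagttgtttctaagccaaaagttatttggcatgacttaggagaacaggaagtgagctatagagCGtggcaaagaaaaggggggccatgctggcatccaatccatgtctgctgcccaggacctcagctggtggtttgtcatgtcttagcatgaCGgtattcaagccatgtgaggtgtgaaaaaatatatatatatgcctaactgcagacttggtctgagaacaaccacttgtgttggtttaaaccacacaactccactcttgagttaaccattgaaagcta

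The motif CG, which reads the same on both strands, occurred 37 times in the Kcna3 promoter, 31 in Kcna2, 41 in Kcnc1 and 49 in Kcng3, against 0 in Kcna10, 2 in Kcnj1 and 5 in Kcnk4. Not every window with high SUZ12 held many CG in these 300 bases: the promoters of Kcnk13 and Kcna6, whose SUZ12 is described below, held 9 and 8. CG in the rest of each 5000 bp window was not counted. Among all 32851 RefSeq promoters of 300 bases the median was 7, and 94.6% held at least 1. A comparison of CG counts over all channel genes is void, because a promoter was matched to 59 of the 92, which is 64.1% of them. A match needed a start of the same gene and strand within 300 bases of the window's start site. Kcna1, whose window had the highest SUZ12 level, had no match.

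The first comparison asked which channel start sites carry PRC2 above the IgG control in ESC and in NPC. In ESC, SUZ12 was above IgG at 13 channel genes: Kcna1, Kcna2, Kcna3, Kcna6, Kcnc1, Kcnc4, Kcnq5 and Kcnh3 among the voltage-gated pores, the modifier Kcng3, the inward rectifier Kcnj10, and the leak channels Kcnk9, Kcnk13 and Kcnk15. Above IgG here means a log2 ratio of at least 1 with an adjusted p below 0.05 in edgeR's quasi-likelihood test. All 13 were above IgG for H3K27me3 as well. Of the 1246 windows of the whole table above IgG for SUZ12, 973 were above it for H3K27me3 too (4.07% of all windows tested). All 13 were also above IgG for MTF2, and the like share over all windows was not counted. MTF2 passed at 25 channel genes, Kcnd2, Kcng2, Kcnj8, Kcnk3, Kcnk10, Kcnk12, Kcnmb4, Kcnq3 and Kcns2 also among them. No auxiliary subunit and no calcium- or sodium-activated channel passed for SUZ12. Over all windows tested, 5.21% passed for SUZ12 and 8.55% for MTF2, against 13 and 25 of the 92 channel genes.

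Kcnk13, which encodes a leak channel subunit, had the highest SUZ12 ratio to IgG among the leak channels, at 2.56 on the log2 scale, with SUZ12 at 139 and 141 CPM in ESC and 77.3 and 53.5 CPM in NPC and IgG at 30.1 CPM in ESC and 37.4 CPM in NPC. Kcna2, a delayed-rectifier subunit of axons, led the voltage-gated genes with 2.45, Kcng3, a silent subunit that assembles with other pore subunits, had 1.96, and Kcnj10, the inward rectifier best known from astrocytes, had 1.84. Both ESC SUZ12 libraries lay above the ESC IgG library at these 4 windows, as the choice of windows requires of their level. The ratios rest on few IgG counts, 9 at Kcnk13 and 11 at Kcna2 in ESC. Kcnk12, with SUZ12 at 220 and 199.9 CPM and IgG at 67.0 CPM in ESC, was not called above IgG for SUZ12. Kcna1, the axonal subunit with the highest SUZ12 level of all 92 windows, stood at 241 and 244 CPM in ESC and 68.7 and 53.5 CPM in NPC, where IgG gave 67.0 CPM in ESC and 37.4 CPM in NPC. By contrast, Kcnj16, an inward rectifier subunit of kidney and glia, had 25.6 and 5.55 CPM in ESC and 60.1 and 40.1 CPM in NPC, below its IgG level of 43.6 CPM in ESC and 61.4 CPM in NPC.

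JARID2 was above IgG at 0 channel genes in ESC, as at 0.0% of all windows (4 channel genes had an unadjusted p below 0.05 in edgeR, and DESeq2 also called 0). In NPC no window of the table passed for SUZ12, JARID2 or MTF2 (0.0% each), so the 0 channel genes called there say nothing particular to them. The counts of channel genes with an unadjusted p below 0.05 in NPC were 2, 0 and 11, and DESeq2 called 0, 0 and 3. Replicate 1 is the deeper ESC library for both SUZ12 (857691 against 540259 counts) and MTF2 (832117 against 478809). Without ESC SUZ12 replicate 1 only Kcnq5 passed for SUZ12, and without replicate 2 there were 9, of which 8 were among the 13. Without ESC MTF2 replicate 1 only Kcnk9 and Kcnq5 passed for MTF2, and with IgG of both cell types as the control 32 passed for SUZ12 and 39 for MTF2.

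Across the 92 windows the mean ESC levels of SUZ12 and MTF2 had a Pearson correlation of 0.951 on the log2(CPM + 1) scale (0.940 over all windows), SUZ12 and H3K27me3 one of 0.666 (0.615), SUZ12 and JARID2 one of 0.358 (0.785) and SUZ12 and IgG one of 0.322 (0.653). These are descriptions across genes, which are not replicates, and the windows share mappability, accessibility and base composition between libraries. In NPC the SUZ12 and MTF2 correlation was 0.731 (0.911 over all windows).

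**Figure D1:**
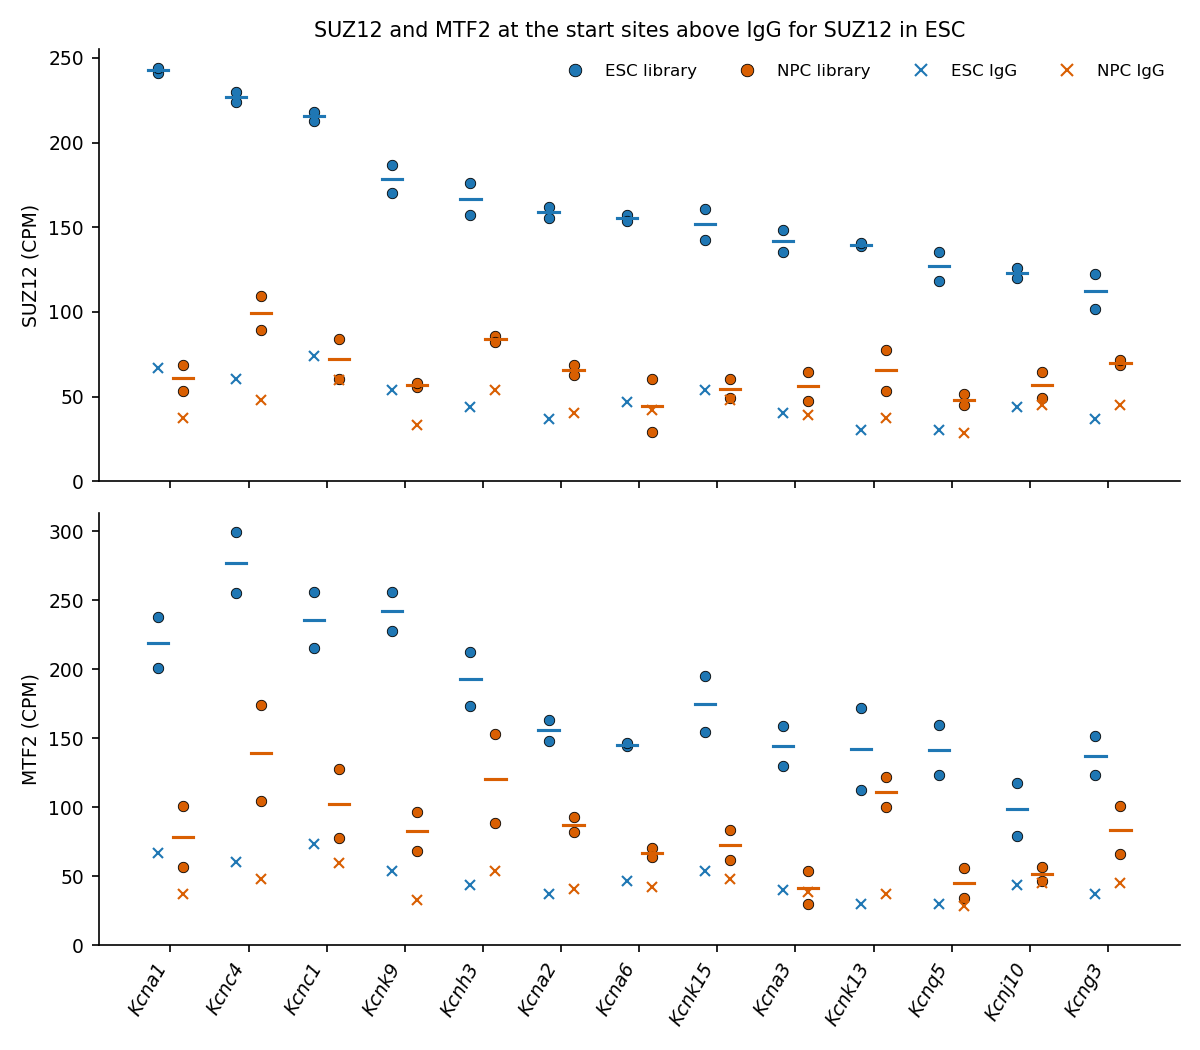
SUZ12 and MTF2 levels (CPM) of the 13 channel windows whose SUZ12 was above IgG in ESC, with 1 point per library, ESC and NPC in different colours, bars at the means and the single IgG libraries as separate marks. At every one of the 13 windows both ESC SUZ12 libraries lie above both NPC SUZ12 libraries, which the choice of windows by their ESC libraries favours.

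The second comparison asked how the levels differ between NPC and ESC. Changes are log2 NPC over ESC from edgeR, scaled so that most windows centre near 0, and a change shared by all windows was not measured. SUZ12 fell at 40 of the 91 channel windows tested and rose at 2, where 13.1% of all windows fell and 2.97% rose. The median log2 change was -0.50 for the channel genes and 0.07 for all windows. Scaling by library totals gave -0.25 and 0.32, and factors from background windows gave -0.71 and -0.14, so that the channel genes lay below all windows under each scaling. By role SUZ12 fell at 16 of 29 voltage-gated pores, 6 of 10 modifiers, 8 of 15 inward rectifiers, 7 of 14 leak channels, 1 of 8 calcium- or sodium-activated channels (Kcnma1) and 2 of 15 auxiliary subunits (Kcnab3 and Kcnip4), the last 2 shares being near that of all windows. All 13 windows above IgG in ESC were among the 40, but those 13 were picked with the same ESC libraries, so that count supports nothing. Every one of the 40 had both ESC libraries above both NPC libraries, and their log2 changes ran from -2.24 to -0.72. The call uses the same libraries, and such separation was not counted over all windows called, so it adds no support. Kcnd1 had too few SUZ12 counts to be tested.

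Kcna1 lost the most SUZ12, from the levels given above, with a log2 change of -2.23 ± 0.24 (SE; adjusted p = 1.62e-17). Kcna6, another subunit of the same subfamily, had 157 and 154 CPM in ESC and 60.1 and 29.0 CPM in NPC (-2.04 ± 0.25, adjusted p = 1.38e-13). Kcnc1, a fast-activating pore of fast-spiking neurons, had 218 and 213 CPM in ESC and 83.7 and 60.2 CPM in NPC (-1.83 ± 0.24, adjusted p = 1.05e-12). At none of these did the ESC and NPC libraries overlap. Among the other voltage-gated genes called, Kcnq5, which contributes to the M current, went from 135 and 118 to 45.1 and 51.3 CPM, and Kcna3, best known from lymphocytes, had 148 and 135 CPM in ESC and 47.2 and 64.6 CPM in NPC (log2 change -1.60). The Kcna3 window overlaps that of AI504432.

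Outside the voltage-gated genes, Kcnk9, an acid-sensitive leak channel, had 186 and 170.3 CPM in ESC and 55.8 and 58.0 CPM in NPC (-1.91 ± 0.24, adjusted p = 7.65e-13). Kcnj8, the pore of an ATP-sensitive channel of vascular smooth muscle, had 191 and 122 CPM in ESC and 42.9 and 64.6 CPM in NPC (-1.84 ± 0.25, adjusted p = 8.37e-12). These are likewise separate between the cell types, although the ESC pair at Kcnj8 lies wider apart than that at Kcnk9. In NPC the log2 ratio of SUZ12 to IgG was 0.18 at Kcna6 and 0.87 at Kcnk9, and neither was called above IgG.

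SUZ12 rose at Kcnk5, an alkaline-activated leak channel of epithelia, from 17.5 and 13.0 to 40.8 and 60.2 CPM (1.41 ± 0.37, adjusted p = 0.00145), and at Kcnj16, an inward rectifier that partners Kcnj10 (1.23 ± 0.36, adjusted p = 0.00543). Neither was above IgG in NPC, with log2 ratios of 0.20 and -0.20. The Kcnk5 call was lost without NPC replicate 2, and the Kcnj16 call without ESC replicate 2 or NPC replicate 1. Without ESC SUZ12 replicate 1 the total called went from 42 to 27. With a minimum count of 30 it was 20 (7 rose and 13 fell), and 13 of the losses passed under every alternative that tested them: Kcna1, Kcna2, Kcna3, Kcna6, Kcnc1, Kcnc4, Kcnj2, Kcnj8, Kcnk9, Kcnk10, Kcnk12, Kcnk15 and Kcnq5. Kcna3 was not tested among windows that overlap no other, since its window overlaps another.

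MTF2 fell at 26 of 92 channel windows and rose at 0, against 8.89% and 3.28% of all windows, with a median log2 change of -0.67 (0.07 over all windows). By role it fell at 11 of 30 voltage-gated pores, 3 of 10 modifiers, 4 of 15 inward rectifiers, 5 of 14 leak channels, 1 of 8 calcium- or sodium-activated channels and 2 of 15 auxiliary subunits. SUZ12 also fell at 21 of the 26, and Kcnh2, Kcnh8 and Kcnmb4 were among the exceptions. The like share over all windows where MTF2 fell was not counted. The libraries were separate at 25 of the 26, all but Kcnk3, a share likewise not counted over all windows called. Unadjusted, edgeR gave p below 0.05 for a higher MTF2 level in NPC at 5 channel windows, and DESeq2 called 17 lower and 0 higher. Scaling by library totals gave channel and all-window medians of -0.38 and 0.35, and factors from background windows gave -1.001 and -0.26.

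The largest MTF2 change was at Kcna3, with 159 and 129.5 CPM in ESC and 29.6 and 54.1 CPM in NPC (-2.04 ± 0.45, adjusted p = 0.000871). Kcnq5 had 159.8 and 123 CPM in ESC and 34.1 and 56.1 CPM in NPC (-1.92 ± 0.44, adjusted p = 0.00149), and Kcnk2, a mechanosensitive leak channel, 101 and 64.7 CPM in ESC and 25.0 and 34.8 CPM in NPC (-1.78 ± 0.35, adjusted p = 0.000171). Kcnk9 (256 and 228 against 68.3 and 96.7 CPM, adjusted p = 0.0488) and Kcna1 (238 and 200.5 against 56.9 and 101 CPM, adjusted p = 0.0437) lay close to the threshold. All 5 had separate groups, with the NPC libraries low and NPC replicate 1 the lower of the pair. These calls depend on the library: none of the 26 passed without NPC MTF2 replicate 1, 3 passed without ESC MTF2 replicate 1, and 5 were called with a minimum count of 30 (2 rose and 3 fell). With library totals as the scaling 5 rose and 24 fell.

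JARID2 fell at 1 of 92 channel windows, Kcnn4, a calcium-activated channel of blood cells and epithelia, and rose at 0 (0.769% and 0.0839% of all windows). Its JARID2 level was 65.4 and 61.9 CPM in ESC and 22.3 and 29.4 CPM in NPC (-1.35 ± 0.35, adjusted p = 0.0183), with no SD in NPC since the pair counts as 1 library. The call was lost without either NPC library, and DESeq2 called 0. Unadjusted, 12 channel windows had p below 0.05 in edgeR and 0 in DESeq2.

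The change of MTF2 differed from that of JARID2 at 4 channel windows, all with the more negative change in MTF2 (1.24% of all windows were called, 1.03% in that direction and 0.206% in the other). The difference in log2 change was -2.80 ± 0.61 (SE; adjusted p = 0.00808) at Kcnq5, -2.25 ± 0.54 (adjusted p = 0.0137) at Kcnh8, a slowly activating voltage-gated pore, -2.22 ± 0.61 (adjusted p = 0.0379) at Kcna3 and -2.16 ± 0.53 (adjusted p = 0.017) at Kcnk2. At all 4 MTF2 had fallen, and the JARID2 change was 0.82 at Kcnq5, 1.28 at Kcnh8, 0.11 at Kcna3 and 0.31 at Kcnk2, none of them called. At Kcnh8 the JARID2 change was thus larger in size, against -0.91 for MTF2. DESeq2 called 0 of the 4 differences, as did the fits without either ESC JARID2 library or without NPC MTF2 replicate 1. There was 1 without ESC MTF2 replicate 1 and 1 without NPC JARID2 replicate 1, and there were 10 without ESC MTF2 replicate 2 and 8 without NPC MTF2 replicate 2.

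**Figure D2:**
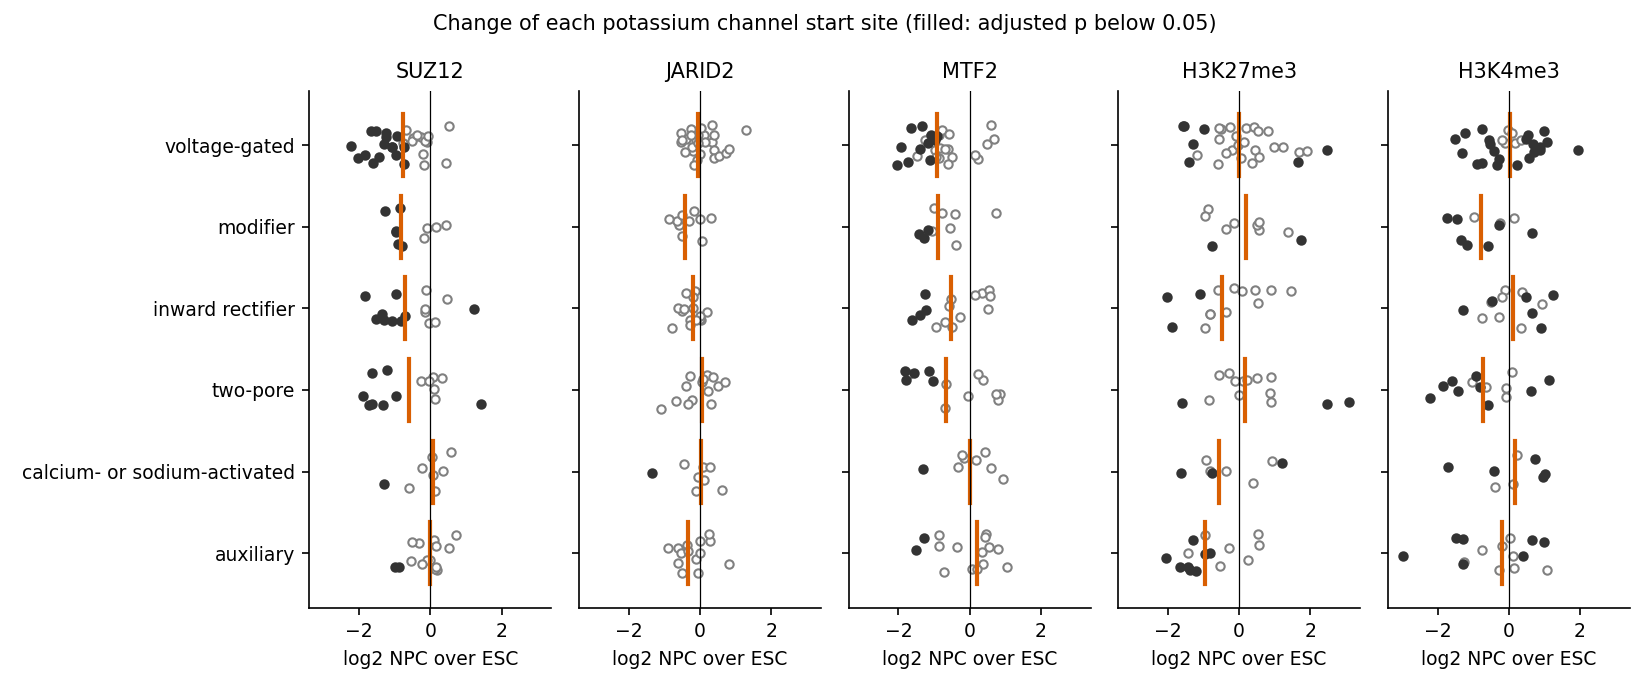
Log2 change from ESC to NPC of SUZ12, JARID2, MTF2, H3K27me3 and H3K4me3 at the channel windows tested, with 1 point per gene, grouped by role (the row of Kcnk genes holds the tandem-pore leak channels), filled points for changes called by edgeR at an adjusted p below 0.05 and bars at each role's median. For SUZ12 16 of 29 voltage-gated pores and 2 of 15 auxiliary subunits fell (13.1% of all windows), and for H3K27me3 5 of 30 voltage-gated pores and 8 of 15 auxiliary subunits (23.5% of all windows); differences between roles were not tested.

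H3K27me3, the product of PRC2, was above IgG at 64 of the 92 channel genes in ESC and at 59 in NPC, where 22.2% and 15.0% of all windows passed. In ESC these were 25 of 30 voltage-gated pores, 6 of 10 modifiers, 11 of 15 inward rectifiers, 9 of 14 leak channels, 4 of 8 calcium- or sodium-activated channels and 9 of 15 auxiliary subunits. Kcnip1, an auxiliary subunit of the A-type channels, had the highest level in both ESC libraries, at 332 and 301 CPM, and Kcnc4, a fast-inactivating voltage-gated pore, the highest in both NPC libraries, at 304 and 509 CPM. Both NPC libraries at Kcnip1 were lower (97.5 and 102 CPM), and that change did not pass (-1.44 ± 0.78, adjusted p = 0.117).

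Between the cell types H3K27me3 fell at 20 and rose at 6 of 91 channel windows tested, with 23.5% and 22.9% of all windows called in those directions. The share that fell is near that of all windows and the share that rose is below it. Auxiliary subunits made up 8 of the 20 that fell, with 5 voltage-gated pores, 3 inward rectifiers, 2 calcium-activated channels, 1 modifier and 1 leak channel. The median log2 change was -0.19 for the channel genes and 0.12 for all windows (-0.42 and -0.05 with library totals, -0.80 and -0.51 with factors from background windows). None of the 20 was above IgG for SUZ12 in ESC. Of the 13 that were, 12 had no H3K27me3 change called and 1, Kcng3, rose. The like shares over all windows were not counted. A missing call does not show a stable mark: the log2 changes at the 13 ran from -0.81 to 1.92. The largest, at Kcnh3, was not called, nor was that of 1.69 at Kcnc4. The 20 called falls ran from -2.06 to -0.76. Among them H3K27me3 was above IgG in neither cell type at Kcna10, Kcnab2, Kcne1, Kcne2, Kcng1, Kcnj16, Kcnmb1 and Kcnn4. A fall at these is not the loss of a mark called above IgG.

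Kcne4, a single-pass auxiliary subunit, had H3K27me3 at 96.3 and 88.0 CPM in ESC and 27.7 and 13.4 CPM in NPC (-2.06 ± 0.36, adjusted p = 5.47e-07). Kcnj15, an inward rectifier of epithelia, had 62.1 and 72.6 CPM in ESC and 19.9 and 10.2 CPM in NPC (-2.03 ± 0.33, adjusted p = 3.5e-08), and Kcnj1, the outward potassium pathway of the kidney tubule, 93.2 and 64.8 CPM in ESC and 25.5 and 14.0 CPM in NPC (-1.90 ± 0.34, adjusted p = 7.98e-07). In each, every ESC library was above every NPC library. Kcnmb1, the smooth muscle subunit of the large-conductance calcium-activated channel (77.7 and 77.2 against 22.2 and 19.8 CPM), and Kcnn2, a small-conductance channel of neurons (64.2 and 74.1 against 24.4 and 15.3 CPM), followed with log2 changes of -1.67 and -1.64. Together with Kcnk18 these 5 passed under every alternative. H3K27me3 at Kcnmb1 was above IgG in neither cell type, with IgG at 63.7 CPM in ESC and 64.4 CPM in NPC. SUZ12 in ESC at the 5 was at or below the IgG level except at Kcnn2, whose log2 ratio was 0.51: it was -0.59 at Kcne4, -0.25 at Kcnj15, -0.02 at Kcnj1 and -0.13 at Kcnmb1.

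At the windows where it rose, Kcnk4, a mechanically gated leak channel of neurons, went in H3K27me3 from 53.9 and 54.0 CPM to 289 and 454 CPM (3.08 ± 0.91, adjusted p = 0.00306). Kcna7, a voltage-gated pore best known from muscle, had 60.1 and 51.0 CPM in ESC and 194 and 307 CPM in NPC (2.46 ± 0.76, adjusted p = 0.00438). Kcnk5 had 7.25 and 10.8 CPM in ESC and 46.5 and 38.2 CPM in NPC (2.46 ± 0.37, adjusted p = 3.53e-09). The groups are separate at all 3, and at Kcnk4 and Kcna7 NPC replicate 2 is the higher of a pair that lies far apart. Kcng3 (77.7 and 83.4 against 175 and 265 CPM, adjusted p = 0.0355) and Kcnu1, a sperm channel (10.4 and 7.72 against 24.4 and 14.7 CPM, adjusted p = 0.0291), also rose. H3K4me3 fell at Kcnk4, Kcna7, Kcnk5, Kcng3 and Kcnu1.

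These counts depend on which libraries enter, beside the wide NPC pair noted above, whose part in them was not tested. There were 10 called without ESC H3K27me3 replicate 1 and 15 without ESC replicate 2, against 56 (31 rose and 25 fell) without NPC replicate 1 and 55 (9 rose and 46 fell) without NPC replicate 2. Of the 6 rises, the one at Kcnk5 passed under every alternative. H3K27me3 at Kcnk5 and at Kcnu1 was nevertheless not above IgG in NPC, with log2 ratios of 0.81 and 0.12. The scaling moved the split as well, to 11 up and 35 down with library totals, 2 up and 25 down with factors from background windows, and 9 up and 15 down with DESeq2.

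The changes of the mark and of SUZ12 were then compared directly. Of the 40 windows where SUZ12 fell, H3K27me3 was not called at 39 and rose at 1 (78.6% and 7.43% of all windows where SUZ12 fell). A change called for one antibody and not for another does not show that they differ, so the difference itself was tested, and it passed at 30 of 92 channel windows: H3K27me3 moved up relative to SUZ12 at 17 (16.7% of all windows) and down at 13 (14.2%). Over all windows 30.9% passed in either direction, close to the share of channel genes. The median difference over the 92 was 0.51 on the log2 scale.

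At Kcnh3, a voltage-gated pore of the forebrain, SUZ12 went from 176 and 157 to 85.9 and 82.5 CPM while H3K27me3 was 114 and 129.7 CPM in ESC and 284 and 462 CPM in NPC, a difference of 3.17 ± 0.90 in log2 change (adjusted p = 0.00402). It was 2.96 ± 0.85 (adjusted p = 0.00476) at Kcnk4 and 2.68 ± 0.77 (adjusted p = 0.00444) at Kcng3. At Kcnh3 and Kcng3 the SUZ12 libraries are lower in NPC and those of H3K27me3 higher, with no overlap, although the H3K27me3 change at Kcnh3 did not pass by itself (adjusted p = 0.0732). H3K27me3 at Kcna1 was 201 and 212 CPM in ESC and 129.7 and 246 CPM in NPC, groups that overlap, beside its SUZ12 loss, and the difference passed (2.44 ± 0.85, adjusted p = 0.02). Without NPC H3K27me3 replicate 2, the higher library, the H3K27me3 change of Kcna1 was -0.92 (adjusted p = 0.0225), the other direction.

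Among the negative differences, none of the 3 with the smallest p was above IgG for SUZ12 in ESC. The difference was -2.37 ± 0.46 at Kcnj16 (adjusted p = 2.98e-05), where SUZ12 rose and H3K27me3 fell from 51.8 and 46.3 to 25.5 and 15.9 CPM, -2.16 ± 0.51 at Kcnip3 (adjusted p = 0.000578), a calcium-binding auxiliary subunit, and -2.12 ± 0.51 at Kcnb2 (adjusted p = 0.000689), a delayed rectifier. H3K27me3 at Kcnip3 was 90.1 and 92.7 CPM in ESC and 32.1 and 26.1 CPM in NPC and at Kcnb2 51.8 and 47.9 CPM in ESC and 16.6 and 12.7 CPM in NPC. At Kcnj16 H3K27me3 was above IgG in neither cell type. Leaving out single libraries gave between 10 and 56 such windows. There were 10 and 15 without ESC H3K27me3 replicate 1 or 2, 13 without ESC SUZ12 replicate 1, 11 and 13 without NPC SUZ12 replicate 1 or 2, and 56 and 48 without NPC H3K27me3 replicate 1 or 2.

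**Figure D3:**
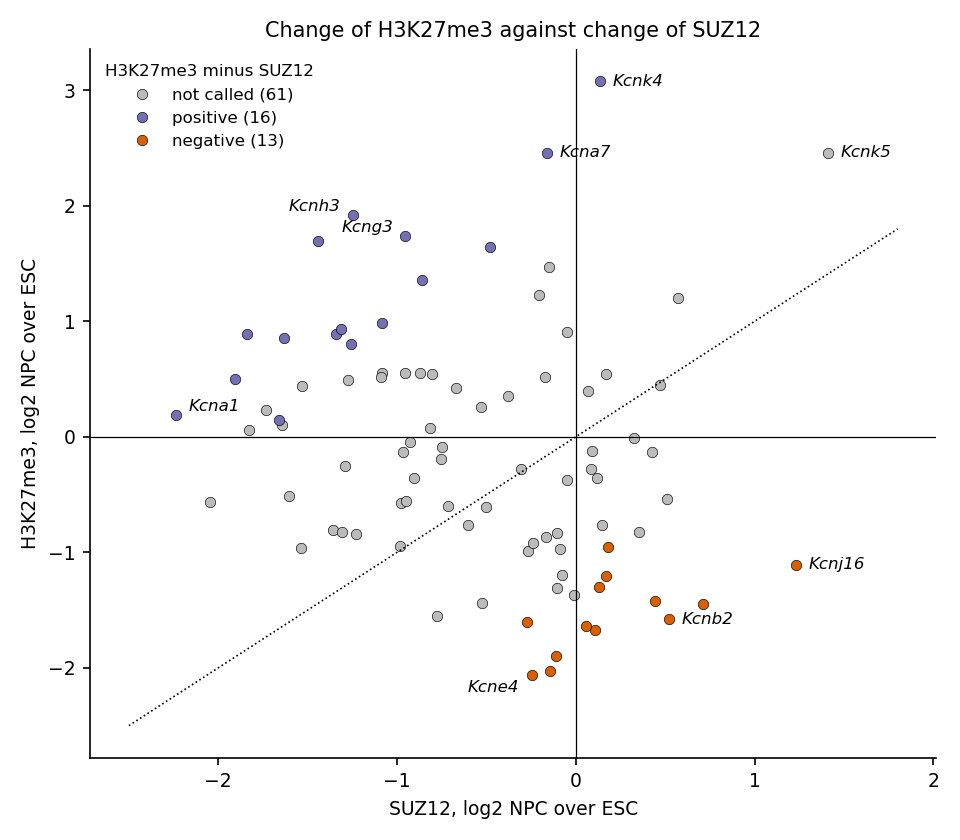
H3K27me3 change against SUZ12 change (log2, NPC over ESC), with 1 point for each of the 90 channel windows tested for both (Kcnd1 and Kcnj14 are not drawn) and colours for the difference called positive, negative or not called. Kcnk4 lies highest, with an H3K27me3 change of 3.08, followed by Kcna7 and Kcnk5 (2.46 each), Kcnh3 (1.92) and Kcng3 (1.74). Furthest right is Kcnk5, with SUZ12 at 1.41, and next to it Kcnj16, with SUZ12 at 1.23 and H3K27me3 at -1.11.

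H3K4me3 changed at 56 of 89 channel windows tested, rising at 24 and falling at 32, against 26.7% and 29.2% of all windows, so the shares are near those of the table. The median log2 change was -0.19 (-0.02 over all windows). By role, 11 rose and 11 fell of 28 voltage-gated pores, 1 and 6 of 10 modifiers, 4 and 2 of 14 inward rectifiers, 2 and 7 of 14 leak channels, 3 and 2 of 8 calcium- or sodium-activated channels and 3 and 4 of 15 auxiliary subunits. With factors from background windows 23 rose and 18 fell.

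The largest rise was at Kcna4, an A-type pore of neurons and heart, whose H3K4me3 was 6.17 and 6.08 CPM in ESC and 27 and 22.8 CPM in NPC (1.96 ± 0.21, adjusted p = 3.69e-19). Kcnj2, the classical inward rectifier, went from 44.5 and 40.6 to 104 and 103 CPM (1.25 ± 0.09, adjusted p = 3.36e-40), the highest channel level in both NPC libraries. Kcnc2, a fast pore of interneurons, had 29.3 and 21.8 CPM in ESC and 49.9 and 58.8 CPM in NPC (1.06 ± 0.11, adjusted p = 1.41e-20). None of these overlapped between cell types. Kcnk3, an acid-sensitive leak channel whose window overlaps that of Gm9899, and Kcnn3, a small-conductance channel, also rose, with log2 changes of 1.12 and 1.02. Kcna4 stayed below its IgG level in both cell types (log2 ratios -0.27 and -0.12), and so did Kcnk3.

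H3K4me3 fell most at Kcnab2, a cytoplasmic subunit of the Kcna channels, with 30.1 and 27.6 CPM in ESC and 5.82 and 2.85 CPM in NPC (-2.98 ± 0.22, adjusted p = 1.09e-38). Kcnk16, a leak channel of pancreatic islets, fell from 10.8 and 9.66 to 2.14 and 2.25 CPM, and Kcnv2, a modifier of the retina, from 6.33 and 6.35 to 2.76 and 1.42 CPM. At Kcnk4 it fell from 55.7 and 57.2 to 18.4 and 14.7 CPM (-1.85 ± 0.13, adjusted p = 1.62e-47), and at Kcnu1 from 58.4 and 67.7 to 18.7 and 19.6 CPM (-1.70 ± 0.12, adjusted p = 5.34e-47). Kcnk5 had the highest ESC level of all channel genes, 153 and 169.5 CPM in ESC and 57.9 and 61.1 CPM in NPC, and its fall (-1.43 ± 0.09, adjusted p = 4.24e-60) went with rises of SUZ12 and H3K27me3. All 6 are separate between the cell types. H3K4me3 was above IgG in ESC at Kcnu1 and Kcnk5, but in neither cell type at Kcnab2, Kcnk16, Kcnv2 and Kcnk4.

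Of the 40 windows where SUZ12 fell, H3K4me3 rose at 16, fell at 11 and was not called at 13. Among the 2786 windows of the whole table where SUZ12 fell, the shares were 47.6%, 22.9% and 29.5%. The 16 included Kcna1 (30.5 and 19.6 against 53.0 and 52.7 CPM), Kcna6 (32.9 and 23.5 against 49.0 and 47.7 CPM), Kcnc1, Kcnc2, Kcnj2, Kcnj8 and Kcnk2. The 11 included Kcnc4, Kcnh3, Kcnk9 (13.1 and 14.9 against 9.50 and 7.24 CPM) and Kcng3, whose log2 change of -0.28 turned to 0.01 (adjusted p = 0.977) with factors from background windows.

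The third comparison asked where both marks lay above IgG, the state called bivalent. In ESC 7 channel genes had both (Kcna2, Kcnd2, Kcnh8, Kcnma1, Kcnmb4, Kcnq3 and Kcnq5), 57 had H3K27me3 without H3K4me3 called, 7 had H3K4me3 alone and 21 neither. In NPC 16 had both, 43 H3K27me3 alone, 2 H3K4me3 alone and 31 neither. H3K4me3 was thus above IgG at 14 channel genes in ESC and at 18 in NPC, below the 35.9% and 38.9% of all windows, and both marks were above it at 2.2% of all windows in ESC and 3.99% in NPC.

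Of the 57 with H3K27me3 alone in ESC, 37 had the same calls in NPC, 7 had both marks (Kcna1, Kcna6, Kcnc2, Kcnh5, Kcnj2, Kcnj3 and Kcnk10) and 13 had neither (Kcna4, Kcnab1, Kcnb2, Kcne4, Kcnh6, Kcnip3, Kcnj1, Kcnj15, Kcnk18, Kcnmb2, Kcnmb3, Kcnn2 and Kcnt1). SUZ12 fell at 25 of the 37, at all 7 that had both marks and, in edgeR's test, at 0 of the 13, also at an unadjusted p below 0.05, and differences between these shares were not tested. The same shares were not counted over all windows, and none of the 13 was above IgG for SUZ12 in ESC to begin with. Calls went from neither to H3K27me3 alone at Kcna7, Kcnf1, Kcnk1 and Kcnk4, and from H3K4me3 alone to both at Kcnab3 and Kcns3. Of the former 4, H3K27me3 itself rose at Kcna7 and Kcnk4, while no change was called at Kcnf1 or Kcnk1. At Kcnk1 H3K27me3 was 92.2 and 78.8 CPM in ESC and 55.4 and 63.7 CPM in NPC and IgG 67.0 CPM in ESC and 37.4 CPM in NPC, so both were lower in NPC. No H3K27me3 change was called at Kcnab3 or Kcns3 either, nor at Kcnh6, Kcnmb2 and Kcnt1 among the 13. Among the 7, Kcnk10 had no H3K4me3 change called (46.99 and 48.05 CPM in ESC, 50.24 and 51.27 CPM in NPC). IgG at Kcnk10 was 43.56 CPM in ESC and 23.96 CPM in NPC. Kcna2, at 58.7 and 58.5 CPM in ESC and 62.8 and 51.2 CPM in NPC for H3K4me3 and 198 and 218 CPM in ESC and 194 and 271 CPM in NPC for H3K27me3, was among 6 with both marks in both cell types, with overlapping libraries for either mark. The H3K4me3 calls depend on the scaling: with library totals 1 channel gene passed in ESC (Kcnk5) and 1 in NPC (Kcnk10), and 0 and 1 had both marks. Leaving out 1 H3K4me3 library gave 6 (replicate 1) or 8 (replicate 2) in ESC and 10 (replicate 1) or 7 (replicate 2) in NPC.

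**Figure D4:**
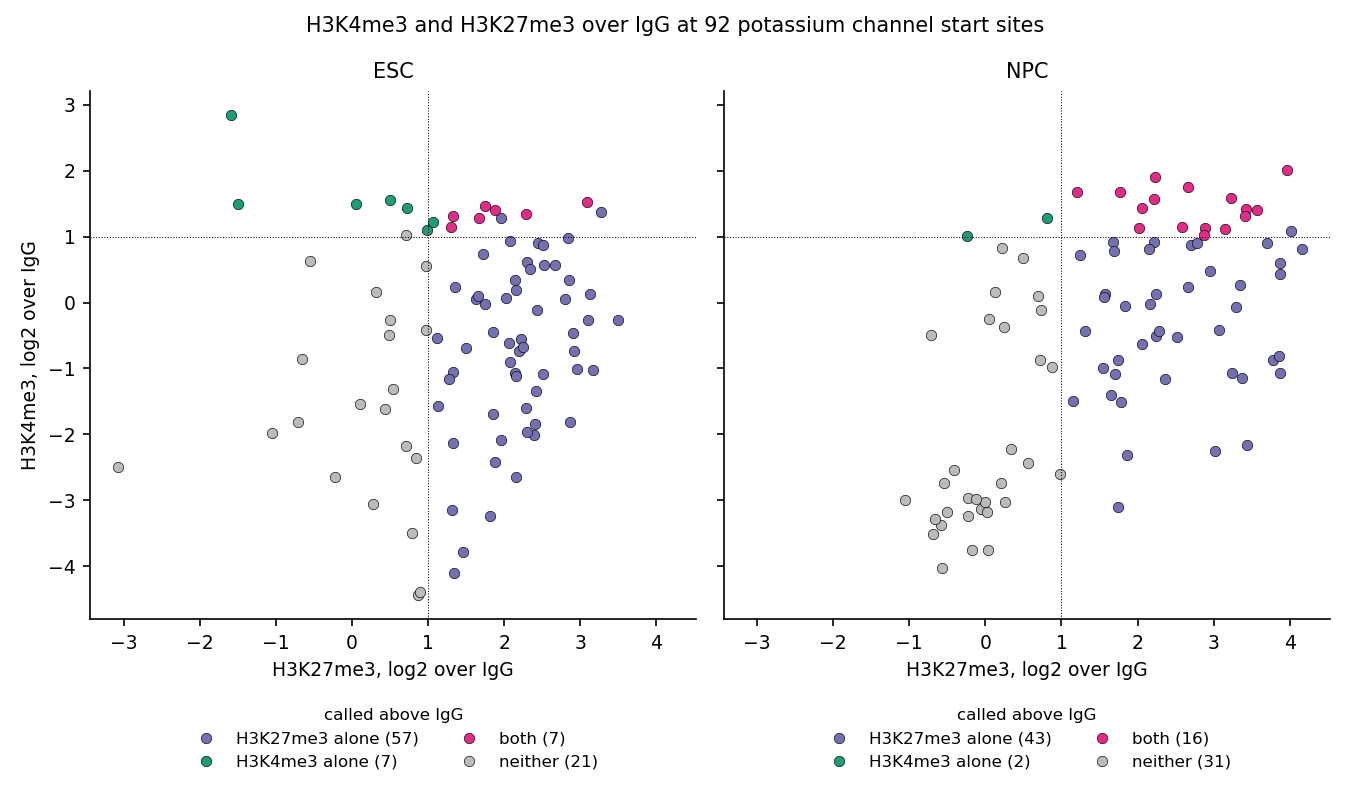
H3K4me3 against H3K27me3, each as log2 over IgG of the same cell type, for the 92 channel windows in ESC (left) and NPC (right), with dotted lines at a log2 ratio of 1 and colours for the calls. The windows called for both marks number 7 in ESC and 16 in NPC.

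Several channel genes are neighbours on a chromosome. On chromosome 3 the start of Kcna3 (107036161) lies 65.4 kb from that of Kcna2 (107101566), which lies 81.6 kb from that of Kcna10 (107183142). SUZ12 was 162 and 156 CPM in ESC and 68.7 and 62.4 CPM in NPC at Kcna2 (-1.53 ± 0.24, adjusted p = 6.83e-09) and fell at Kcna3 as given above. Kcna10, a channel of sensory hair cells whose promoter had 0 CG, had SUZ12 at 17.5 and 27.8 CPM in ESC and 40.8 and 29.0 CPM in NPC, not called (adjusted p = 0.497), and H3K27me3 that fell from 61.1 and 58.7 to 19.9 and 18.5 CPM. Its H3K4me3 counts were too few to be tested. Kcna3 and Kcna2 thus stood high in ESC for SUZ12 and Kcna10 low, with no H3K27me3 change called at the former pair (adjusted p = 0.476 and 0.671).

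On chromosome 6 the starts of Kcna5 (126535555), Kcna1 (126645801) and Kcna6 (126740674) are 110.2 and 94.9 kb apart. Kcna5, a pore of atrium and smooth muscle, had SUZ12 at 44.3 and 37.0 CPM in ESC and 51.5 and 40.1 CPM in NPC, overlapping and not called, and H3K27me3 that fell from 168 and 133 to 47.7 and 54.8 CPM (adjusted p = 0.0301). H3K27me3 at Kcna6 was 288 and 250.1 CPM in ESC and 131 and 173 CPM in NPC, not called (adjusted p = 0.569). SUZ12 was above IgG in ESC at Kcna3, Kcna2, Kcna1 and Kcna6, and the ESC libraries that decided this also enter the change of SUZ12. The H3K27me3 change differed from that of SUZ12 at Kcna1, as given above, and at Kcna10 (-1.88 ± 0.48, adjusted p = 0.00152). The difference did not pass at Kcna2 (adjusted p = 0.0577), Kcna5 (0.116), Kcna6 (0.149) or Kcna3 (0.226). H3K27me3 at Kcna10 was not above IgG in either cell type, and at Kcna5 it was above IgG in both (log2 ratios 3.11 and 1.15). The Kcna5 call was lost without either ESC H3K27me3 library.

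**Figure D5:**
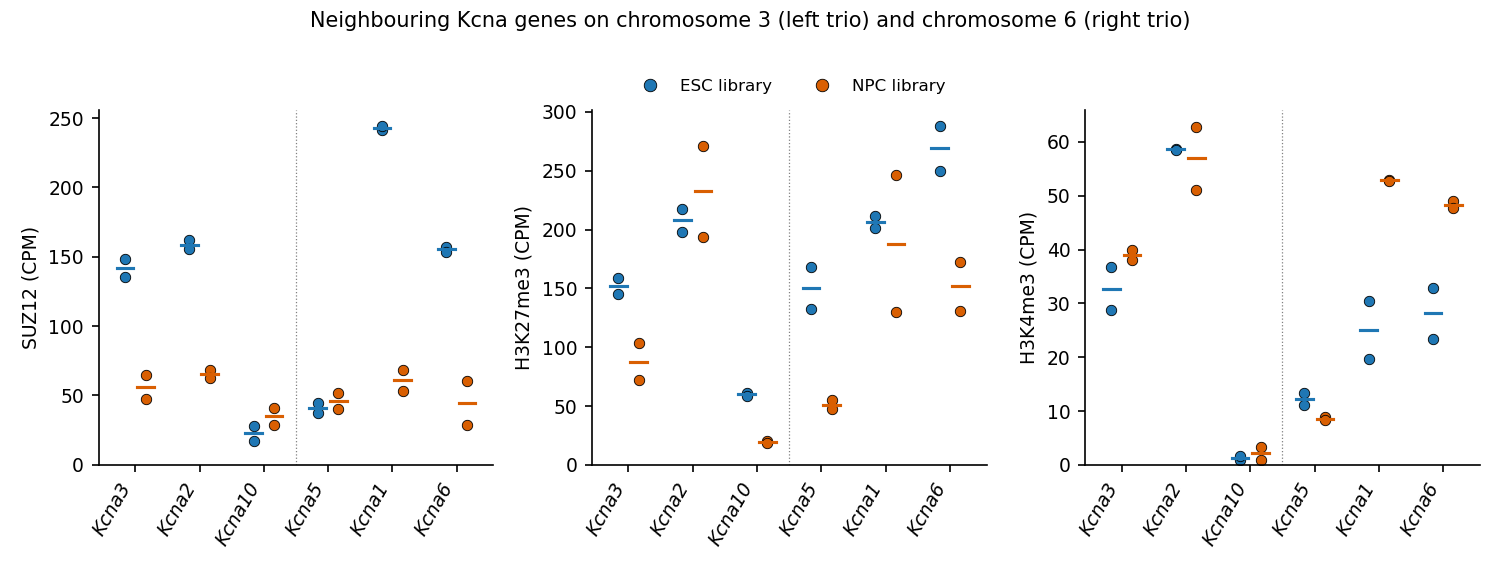
SUZ12, H3K27me3 and H3K4me3 levels (CPM) at the Kcna3, Kcna2 and Kcna10 trio and the Kcna5, Kcna1 and Kcna6 trio, with 1 point per library, ESC and NPC in different colours and bars at the means of 2 libraries. SUZ12 in ESC lies between 135 and 244 CPM at Kcna3, Kcna2, Kcna1 and Kcna6 and between 17.5 and 44.3 CPM at Kcna10 and Kcna5.

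Among other neighbours, Kcnj16 and Kcnj2 start 68.7 kb apart on chromosome 11, where SUZ12 rose at the former and fell at the latter (131 and 92.5 against 45.1 and 49.0 CPM, adjusted p = 4.8e-08). Kcnk5 and Kcnk16 start 87.4 kb apart on chromosome 14; SUZ12 at Kcnk16 was 31.5 and 38.9 CPM in ESC and 49.4 and 37.9 CPM in NPC, not called. Kcnj9, a G protein-gated rectifier 11.9 kb from Kcnj10, fell with it in SUZ12 (-0.82 ± 0.27, adjusted p = 0.022, against -1.36 ± 0.24, adjusted p = 7.63e-07). Kcnj5, another G protein-gated rectifier 49.7 kb from Kcnj1, fell in SUZ12 (-0.72 ± 0.26, adjusted p = 0.0395; 0.12 with a minimum count of 30), while Kcnj1 did not pass (adjusted p = 0.892). Kcne1 and Kcne2, auxiliary subunits 67.1 kb apart, both fell in H3K27me3 (-1.30 and -0.83), though neither was above IgG for it in either cell type. Kcnip1 lies 119.4 kb from Kcnmb1. Kcnq1, a pore of heart and inner ear in an imprinted region, fell in SUZ12 (75.8 and 90.7 against 53.7 and 62.4 CPM, adjusted p = 0.0202), but its change was 0.09 (adjusted p = 0.807) with a minimum count of 30. Its H3K27me3 was 288 and 242 CPM in ESC and 184 and 233 CPM in NPC, not called (adjusted p = 0.939).

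Genes that work with these channels were read from a list of 16 partners, among them the related Hcn pacemaker channels, the sulfonylurea receptors and the ankyrins. SUZ12 fell at 6 of 16 and rose at 1: Dpp10, a partner of A-type channels, changed by -2.44, Hcn4 by -1.83, Amigo1 by -0.92, Lrrc26 by -0.90, Hcn2 by -0.81, Lrrc38 by -0.74 and Kcnrg by 1.11 on the log2 scale. MTF2 fell at 5 of 15 (Dpp10, Lrrc38, Amigo1 and Hcn4 among them) and JARID2 was called at 0 of 16. H3K27me3 fell at 4 of 15 (Abcc9, Lrrc52, Lrrc55 and Ank2) and rose at 1, Hcn2 (1.63). H3K4me3 rose at 3 of 15 (Abcc9, Hcn3 and Ank3) and fell at 3 (Dpp6, Lrrc26 and Lrrc38). Over all windows SUZ12 fell at 13.1% and MTF2 at 8.89%, H3K27me3 fell at 23.5% and rose at 22.9%, and H3K4me3 rose at 26.7% and fell at 29.2%, so the partners' shares for the histone marks were near or below those of all windows.

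Over the 5 antibodies, 17 channel genes had 3 changes called (5.99% of all windows), 35 had 2 (23.4%), 30 had 1 (42.0%) and 10 had none (27.3%). The 17 were Kcna1, Kcna6, Kcnc2, Kcnh5, Kcnq3 and Kcnq5 among the voltage-gated pores, Kcng3 and Kcns2 among the modifiers, Kcnj2, Kcnj8 and Kcnj10 among the inward rectifiers, the leak channels Kcnk2, Kcnk3, Kcnk5 and Kcnk9, the large-conductance calcium-activated channel Kcnma1, and Kcnip4, a subunit of A-type channels. The 10 without any were Kcne3, Kcng4, Kcnh4, Kcnh6, Kcnip1, Kcnip2, Kcnj13, Kcnj14, Kcnn1 and Kcnt2. For H3K27me3 Kcnj14, and for H3K4me3 Kcna10, Kcnb2 and Kcnj15, had too few counts to be tested, and such genes are counted as not called where changes of several antibodies are set side by side.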

How the data were processed

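The deposited table holds raw counts of reads in 24467 windows of 5000 bp around start sites for 22 CUT&RUN libraries. The submitters' processing notes name build mm10, Bowtie2 2.3.4.3 and Picard 2.19. Which program counted the reads is not given in the sources used here. The labels' protocols mention Drosophila DNA as a spike-in, whose counts are not used here. All columns were mapped to samples by name (0 unused).

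From these counts, each antibody's NPC and ESC libraries were compared with edgeR 4.0.16 (R 4.3.3; quasi-likelihood test, TMM scaling, filterByExpr with a minimum count of 10, Benjamini-Hochberg over all windows tested, called below 0.05). CPM values use each library's own window total without TMM, so a ratio of CPM can differ from the fitted change. Ratios to IgG, and the differences between antibodies' changes, came from joint fits; IgG has 1 library per cell type and borrows the spread of the other groups. The NPC JARID2 libraries were summed and the ESC pair kept apart (chi-square per degree of freedom 1.019, p = 0.02648). Fits were tested on simulated data. Alternatives were DESeq2 1.42.0, other scalings, filters, thresholds and IgG controls, a replicate block, windows that overlap no other, and leaving out each library.

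Genes named with full values were, for each antibody, the 5 largest called changes in each direction with separate libraries; for each role the highest SUZ12 ratio to IgG among genes above it; the 3 smallest p of each sign in each test of a difference; Kcnq1; and channel genes with starts within 200 kb of each other. Others are named to list a count, and a few genes, 1 of them named by this rule, are not reported here by name. The members, lists and rules were chosen with earlier results of these data known. The symbols of all 92 genes matched the RefSeq gene table, and promoters are from RefSeq. Precision is limited by counting: 3 counts are 0.356 to 10.05 CPM. The p-values of changes rest on the spread between 2 libraries a group, which edgeR partly shares across windows. For JARID2 only the ESC pair gives a spread, and ratios to IgG borrow it from the other groups.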

Additional observations from a re-analysis of the deposited data

Results flagged for a closer look

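The change from ESC to NPC differed between H3K27me3 and SUZ12, by edgeR's test of that difference, at 30 channel windows, 17 with the higher change in H3K27me3 and 13 with the lower. Over all windows 16.7% and 14.2% were called in those directions, so the count is near the share of the whole table.

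It differed between MTF2 and JARID2 at 4 channel windows (Kcna3, Kcnh8, Kcnk2 and Kcnq5), each with the lower change in MTF2. Over all windows 1.03% were called in that direction.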

How the results depend on the processing

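Counts of channel genes called are given here. DESeq2 gave 0 for JARID2 (1 as reported), 17 for MTF2 (26), 0 for the difference of MTF2 and JARID2 (4), 20 positive and 5 negative for that of H3K27me3 and SUZ12, and 3 above IgG for MTF2 in NPC (0). A minimum count of 30 gave 20 for SUZ12 (42), 0 for JARID2, 5 for MTF2 and 40 for H3K27me3 (26, now 29 up and 11 down), and turned the direction at Kcna7 (0.68, adjusted p = 0.0121), Kcnj5 (0.12) and Kcnq1 (0.0887) for SUZ12. Library totals gave 46 for H3K27me3, 49 for its difference from SUZ12 (30), 1 above IgG for H3K4me3 in ESC (14) and 1 in NPC (18), and 0 and 1 with both marks (7 and 16). IgG of both cell types gave 32 above IgG for SUZ12 (13), 39 for MTF2 (25) and 12 with both marks in ESC. A log2 ratio of at least 2 gave 14 for MTF2 and 39 for H3K27me3 in ESC (64), 1 for H3K4me3 in either cell type, and 0 and 1 with both marks. Background windows turned H3K4me3 at Kcng3 to 0.01. The causes were not tested.

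Leaving out 1 library gave 27 to 40 for SUZ12, 0 to 20 for MTF2, 10 to 56 for H3K27me3, 44 to 59 for H3K4me3 (56), 0 to 0 for JARID2, 10 to 56 for the difference of H3K27me3 and SUZ12 and 0 to 10 for that of MTF2 and JARID2. Above IgG it gave 1 to 9 for SUZ12, 2 to 28 for MTF2, 56 to 64 for H3K27me3 and 6 to 8 for H3K4me3 in ESC, and 40 to 60 and 7 to 10 for the marks in NPC. For H3K27me3 at Kcna1 the change was 0.773 without NPC replicate 1 and -0.92 without NPC replicate 2. An ESC JARID2 library was not left out of the JARID2 comparison, since 1 library would remain on each side.

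The labels do not say whether replicate numbers pair libraries across cell types. Deviations of same-numbered libraries correlated at -0.190 for H3K27me3, -0.168 for MTF2, -0.036 for H3K4me3, -0.001 for SUZ12 and 0.013 for JARID2. Counting error enters these deviations, so the low correlations do not exclude pairing. With the replicate number as a block, MTF2 had 4 called, H3K27me3 16, JARID2 0, SUZ12 42, H3K4me3 53 and the differences 25 and 4. With the numbers crossed, an alternative chosen after seeing the data, 43 were called for MTF2 and 28 for H3K27me3.

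Of the other counts, 114 stayed within 1.5 times the reported one. Among single genes 2812 values kept their side of the threshold, 288 fell short of it and 101 passed it. The measure of CpG content was not run, since the comparison is void.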
